A study of Mus musculus with 16 samples.

Results

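The 10 genes described here mark the reactive state of astrocytes. They are the intermediate filament genes *Gfap*, *Vim*, *Nes* and *Synm*, the genes of the secreted proteins *Serpina3n*, *Lcn2* and *Timp1*, the receptor genes *Osmr* and *Cd44*, and the enzyme gene *Aspg*. They were chosen by gene symbol, with earlier results of these data known. Among the 18167 genes of the deposited spinal cord table, 10 of 10 were found.

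Astrocytes are the glial cells that take up transmitter and potassium around synapses and blood vessels. After injury, infection or neurodegeneration they enter a reactive state, in which the cell body enlarges, processes thicken and the intermediate filament protein GFAP accumulates. In amyotrophic lateral sclerosis (ALS) and its mouse models, reactive astrocytes are found around the degenerating motor neurons of the spinal cord, and cytokines that signal through gp130 and the transcription factor STAT3 are among the known triggers of the reactive state.

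RNA-seq was performed on spinal cords of 16 mice labelled male, all of which carried a human profilin1 (hPFN1) transgene under the prion protein (*Prnp*) promoter, which is active in neurons and in many other cell types. Mutant mice, of line 838 on a C57BL/6N background, expressed hPFN1 with the ALS-linked change G118V. Group MY (mutant young, n = 3) was sampled at 50 days, before symptoms. Group MO (mutant old, n = 5) was sampled at end-stage, when its mice were 175 to 245 days old. Control mice, of line 850 on the same background, expressed hPFN1 without the change and were 50 days old (wild-type young, WY, n = 3) or 190 to 294 days old (wild-type old, WO, n = 5). A difference between genotypes is therefore a difference between 2 transgenic lines, and mice without a transgene were not analysed here. The ages of MO1 to MO5 were 198, 190, 245, 224 and 175 days. WO1 to WO3 were 190 days old, and WO4 and WO5 were 294 days old. All WY and MY libraries belonged to batch 1, whereas MO4, MO5, WO4 and WO5 were the libraries of batch 2, so that batch and age cannot be told apart within WO.

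Levels are given as log2(1 + FPKM), adjusted for batch by the authors. The deposited table holds no read counts, so how many reads stand behind the value of a gene is unknown. Each library came from a separate mouse, and p-values measure the spread between mice. A log2 fold change (log2FC) is the difference between 2 group means on this scale, second group minus first, and it understates the change of genes near an FPKM of 1 or lower. Genes were called differentially expressed when the Benjamini-Hochberg adjusted p of limma over all genes (FDR) was at most 0.05 and the fold change was at least 1.5.

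The library MO5 went against its male label. *Xist*, expressed from the inactive X chromosome of females, was at 3.21 in MO5 and no higher than 0.37 elsewhere. *Ddx3y*, on the Y chromosome, was at 1.95 in MO5 and no lower than 4.06 elsewhere. Results that include MO were therefore also computed without MO5. In MY vs. MO, WO vs. MO and the interaction of age and genotype, 9 of the 10 genes were called both with and without MO5.

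In the end-stage mutant cord, 9 of the 10 genes were up-regulated, and *Synm* was the exception. From MY to MO 9 genes were called up, against 747 of all 18167 genes (4.11%). From WO to MO 9 genes were called up as well, against 742 of all genes (4.08%). For each of these 9 genes all 5 MO mice lay above all 11 mice of the other groups, a pattern found in 1377 of all genes (7.58%). The median log2FC of the 10 genes was 1.68 in MY vs. MO, where the median of all genes was 0.0047, and 1.68 in WO vs. MO, where it was 0.00035. Both comparisons share the MO mice. Without MO5 the medians of the 10 genes were 1.71 in MY vs. MO and 1.71 in WO vs. MO. In RNA of whole tissue, more astrocytes and more RNA per astrocyte cannot be told apart. Markers of microglia were also higher in MO: 8 marker genes summed to 372 ± 61.6 FPKM (SD, n = 5) in MO and to 150 ± 21.0 FPKM (n = 5) in WO, and their part in the results below was not tested.

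**Figure D1:**
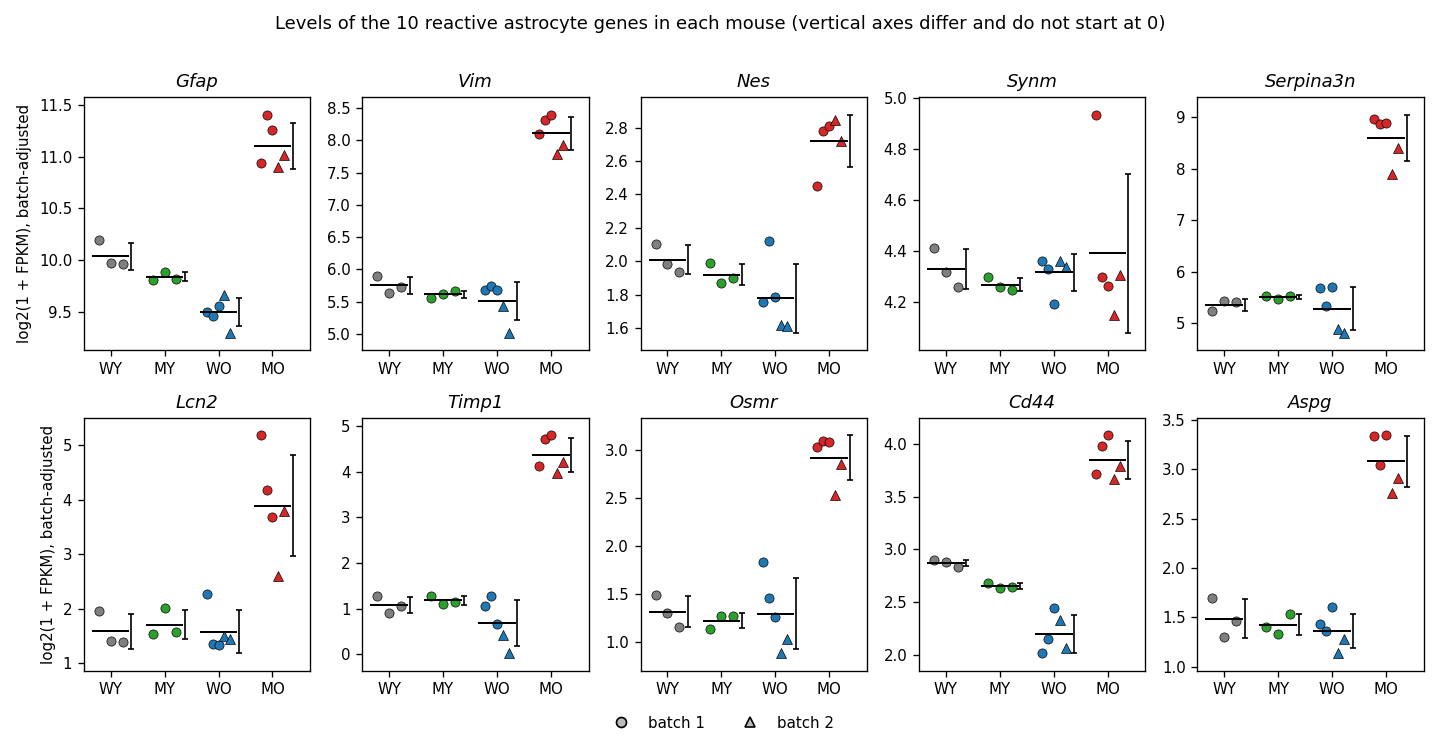
Batch-adjusted log2(1 + FPKM) of the 10 genes in each mouse (circles, batch 1; triangles, batch 2) by group, with the group mean as a horizontal line and the SD as the bar beside it. In every panel except that of *Synm* the 5 MO mice lie above the 11 other mice, and in the panel of *Synm* MO1 stands apart at 4.93.

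By mean level, the intermediate filament genes held the most and the least abundant RNAs of the 10 in MO. *Gfap* (ENSMUSG00000020932.14, chr11:102887336-102900912, minus strand, GENCODE M21 on GRCm38) codes for the main filament protein of mature astrocytes. Its levels in MO1 to MO5 were 10.94, 11.41, 11.25, 10.90 and 11.02, and in MY1 to MY3 they were 9.81, 9.89 and 9.82. In WO1 to WO5 its levels were 9.50, 9.46, 9.56, 9.67 and 9.30, and in WY1 to WY3 they were 10.19, 9.97 and 9.96. *Gfap* was thus abundant in every mouse, the MO mice stood above the rest without overlap, and every WO mouse was below every young mouse. Mean FPKM was 2217 in MO, 917 in MY, 724 in WO and 1055 in WY. The log2FC of *Gfap* was 1.26 (SE 0.12, FDR 0.000317) from MY to MO and 1.60 (SE 0.10, FDR 1.46e-05) from WO to MO. After quantile normalization these values were smaller, 0.80 (FDR 0.000226) and 1.21 (FDR 2.51e-05), and *Gfap* was still called in both. Among the 9 genes called up, *Vim*, *Serpina3n*, *Timp1*, *Lcn2*, *Osmr* and *Aspg* had a larger fold change than *Gfap* in both comparisons, and *Nes* a smaller one. From WO to MO, however, *Osmr* (1.63, SE 0.17) and *Gfap* differed by less than their SEs. Within batch 1 their order was reversed (1.55 for *Osmr* and 1.69 for *Gfap*).

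*Vim* (ENSMUSG00000026728.9, chr2:13573927-13582826, plus strand) codes for vimentin, which forms filaments together with GFAP in reactive astrocytes and is also made by endothelial cells, fibroblasts and other cells. *Vim* was at 8.10, 8.31, 8.40, 7.79 and 7.92 in MO1 to MO5 and at 5.55, 5.62 and 5.66 in MY1 to MY3. It was at 5.68, 5.75, 5.68, 5.43 and 5.02 in WO1 to WO5 and at 5.89, 5.64 and 5.73 in WY1 to WY3. The lowest MO mouse (MO4) was well above the highest mouse of the other groups (WY1), and WO4 and WO5, of batch 2, were the lowest of all 16. The log2FC was 2.49 (SE 0.13, FDR 0.000203) from MY to MO and 2.59 (SE 0.16, FDR 1.46e-05) from WO to MO, a fold change of 5.63 and 6.04.

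*Nes* (ENSMUSG00000004891.16, chr3:87971078-87980451, plus strand) codes for nestin, a filament protein of neural progenitors that reactive astrocytes can make again. It was at 2.45, 2.78, 2.81, 2.85 and 2.72 in MO1 to MO5, and between 1.62 and 2.12 in the 11 other mice. *Nes* had the smallest increase of the 9 genes called, with a log2FC of 0.80 (SE 0.09, FDR 0.000579) from MY to MO and 0.94 (SE 0.10, FDR 0.000111) from WO to MO. It was also the gene in which MO4, the lowest MO mouse in every other panel, was highest.

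*Synm* (ENSMUSG00000030554.16, chr7:67730160-67759742, minus strand) codes for synemin, a filament protein that assembles with vimentin or other partners. It was at 4.93, 4.30, 4.26, 4.15 and 4.31 in MO1 to MO5 and at 4.30, 4.26 and 4.25 in MY1 to MY3. It was at 4.36, 4.33, 4.19, 4.36 and 4.34 in WO1 to WO5 and at 4.41, 4.32 and 4.26 in WY1 to WY3. MO1 was above every other mouse, and the other MO mice lay within or below the range of the remaining groups. The log2FC was 0.12 (SE 0.16, 95% interval -0.24 to 0.49, FDR 0.639) from MY to MO and 0.07 (SE 0.13, 95% interval -0.21 to 0.36, FDR 0.727) from WO to MO. Both values rested on MO1, since they were -0.01 and -0.06 without it. *Synm* lies within the gene *Ttc23* on the opposite strand, and whether the counting used strand is not given in the sources used here. *Ttc23* itself was at 1.70 to 1.85 in the mice of the other groups and at 1.98 to 2.05 in MO.

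*Timp1* and *Serpina3n*, both genes of secreted proteins, had the largest increases of the 10 genes. *Serpina3n* (ENSMUSG00000021091.8, chr12:104406729-104414329, plus strand) codes for a secreted inhibitor of serine proteases. It was at 8.97, 8.86, 8.88, 7.90 and 8.39 in MO1 to MO5 and at 5.53, 5.47 and 5.52 in MY1 to MY3. It was at 5.67, 5.32, 5.70, 4.88 and 4.81 in WO1 to WO5 and at 5.22, 5.43 and 5.41 in WY1 to WY3. MO mice were far above all others, and in both old groups the 2 mice of batch 2 were the lowest. Mean FPKM was 401 in MO, 44.4 in MY and 39.2 in WO. The log2FC was 3.09 (SE 0.23, FDR 0.000212) from MY to MO, rank 11 of all genes in decreasing order, and 3.32 (SE 0.24, FDR 2.16e-05) from WO to MO, rank 10.

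*Serpina3n* belongs to a cluster of closely related genes on chromosome 12, among which short reads can be shared, so the split between these genes is uncertain. Of the 11 genes of the cluster 7 were in the table, and *Serpina3a*, *Serpina3b*, *Serpina3j* and *Serpina3k* were not analysed here. *Serpina3n* held nearly all of the cluster's signal, which summed to 407 ± 113 FPKM (SD, n = 5) in MO and 41.7 ± 11.3 FPKM (n = 5) in WO. *Serpina3m* was at 2.53, 1.69, 1.19, 0.47 and 1.23 in MO1 to MO5 and at most at 0.11 in the other mice, and it was called up from MY to MO (log2FC 1.38, limma FDR 0.0308) and from WO to MO (1.37, limma FDR 0.00638). *Serpina3i* was called up from WO to MO (0.64, limma FDR 0.000341) and was just short of the fold change threshold from MY to MO (0.58, limma FDR 0.00615).

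*Timp1* (ENSMUSG00000001131.11, chrX:20870166-20874735, plus strand) codes for a secreted inhibitor of matrix metalloproteinases. It was at 4.12, 4.71, 4.80, 3.97 and 4.22 in MO1 to MO5 and at 1.28, 1.11 and 1.15 in MY1 to MY3. It was at 1.06, 1.28, 0.66, 0.43 and 0.02 in WO1 to WO5 and at 1.28, 0.91 and 1.06 in WY1 to WY3. *Timp1* was thus the least abundant of the 10 genes in WY, MY and WO and the fifth most abundant in MO. Mean FPKM was 20.1 in MO, 1.27 in MY, 0.691 in WO and 1.13 in WY. The log2FC was 3.18 (SE 0.19, FDR 0.000203) from MY to MO and 3.67 (SE 0.24, FDR 1.46e-05) from WO to MO, the largest of the 10 genes in both comparisons (rank 10 and rank 6 of all genes). From MY to MO it differed from that of *Serpina3n* (3.09, SE 0.23) by less than either SE. *Timp1* lies wholly within *Syn1* on the opposite strand. *Syn1*, a gene of synaptic vesicles, moved the other way, at 6.56 to 6.90 in the mice of the other groups and at 6.38 to 6.58 in MO (log2FC -0.34, limma FDR 0.000651 from WO to MO, below the fold change threshold).

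*Lcn2* (ENSMUSG00000026822.14, chr2:32384633-32388252, minus strand) codes for lipocalin 2, a secreted protein that binds iron carriers of bacteria and is made by reactive glia and by neutrophils. It was at 5.18, 4.18, 3.68, 2.61 and 3.79 in MO1 to MO5 and at 1.54, 2.02 and 1.57 in MY1 to MY3. It was at 2.28, 1.35, 1.33, 1.51 and 1.44 in WO1 to WO5 and at 1.96, 1.41 and 1.39 in WY1 to WY3. The MO mice were widely spread (SD 0.93, n = 5), with MO1 highest and MO4 just above WO1, the highest mouse of the other groups. The log2FC was 2.18 (SE 0.48, FDR 0.0117) from MY to MO and 2.31 (SE 0.40, FDR 0.00158) from WO to MO. The call in MY vs. MO was lost without MY1 (2.09, FDR 0.0529) and without MY3 (2.11, FDR 0.0510), whereas without MO5 it was kept (2.20, FDR 0.0235). None of the 6 neutrophil markers measured was called in any comparison. Their summed level was 7.78, 8.44, 1.04, 4.74 and 0.903 FPKM in MO1 to MO5, with a mean of 4.58 FPKM, and the mean was 4.10 FPKM in MY and 1.85 FPKM in WY. In WO it averaged 12.8 ± 13.9 FPKM (SD, n = 5), with 37.4 FPKM in WO2. The part of neutrophils in the level of *Lcn2* was not tested.

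Both receptor genes were up-regulated in MO. *Osmr* (ENSMUSG00000022146.12, chr15:6813577-6874969, minus strand) codes for the oncostatin M receptor, which signals together with gp130. It was at 3.03, 3.10, 3.08, 2.54 and 2.86 in MO1 to MO5 and at 1.13, 1.27 and 1.27 in MY1 to MY3. It was at 1.83, 1.46, 1.26, 0.88 and 1.04 in WO1 to WO5 and at 1.49, 1.31 and 1.16 in WY1 to WY3. The 3 MO mice of batch 1 were close together and above both of batch 2, and WO4 and WO5 were again the lowest of all mice. The log2FC was 1.70 (SE 0.13, FDR 0.000212) from MY to MO and 1.63 (SE 0.17, FDR 9.01e-05) from WO to MO.

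*Cd44* (ENSMUSG00000005087.17, chr2:102811141-102901665, minus strand) codes for a cell surface receptor of hyaluronan and osteopontin, made by astrocytes and by immune cells. It was at 3.71, 3.98, 4.08, 3.67 and 3.79 in MO1 to MO5 and at 2.69, 2.64 and 2.65 in MY1 to MY3. It was at 2.02, 2.15, 2.45, 2.33 and 2.07 in WO1 to WO5 and at 2.90, 2.88 and 2.83 in WY1 to WY3. No 2 groups overlapped, and their order was MO, WY, MY and WO. The log2FC was 1.19 (SE 0.09, FDR 0.000247) from MY to MO and 1.64 (SE 0.10, FDR 1.46e-05) from WO to MO.

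*Aspg* (ENSMUSG00000037686.6, chr12:112106679-112127559, plus strand) codes for an asparaginase. It was at 3.34, 3.04, 3.35, 2.76 and 2.92 in MO1 to MO5 and between 1.13 and 1.70 in the 11 other mice. Its log2FC was 1.66 (SE 0.14, FDR 0.000287) from MY to MO and 1.72 (SE 0.13, FDR 2.16e-05) from WO to MO, close to that of *Osmr*.

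**Figure D2:**
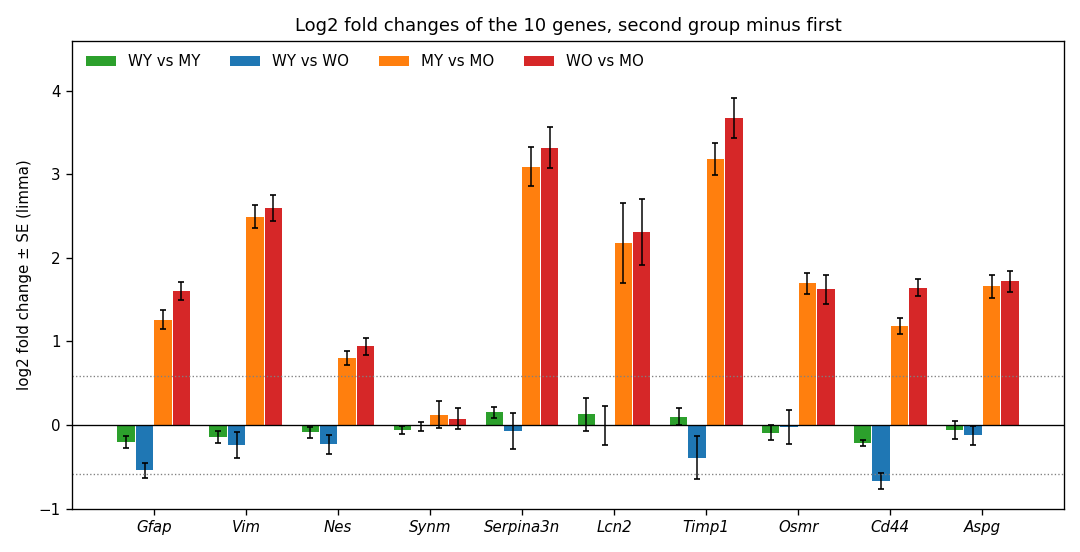
Log2 fold changes of the 10 genes in 4 comparisons, as the mean of the second group minus that of the first on the log2(1 + FPKM) scale, with the limma SE as error bars and dotted lines at a fold change of 1.5. The comparisons with MO reach from 0.07 for *Synm* to 3.67 for *Timp1*, and *Cd44* (-0.67, WY vs. WO) is the bar past the lower dotted line.

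The question whether the mutant cord changed between the young and the old age otherwise than the wild-type cord was tested as the interaction of age and genotype, (MO - MY) - (WO - WY). Of the 10 genes 9 were called with a positive interaction, against 845 of all genes (4.65%). The median was 1.83, and the median of all genes was 0.0073. The largest values were 3.57 for *Timp1* (limma FDR 4.43e-05), 3.17 for *Serpina3n* (limma FDR 6.43e-05) and 2.73 for *Vim* (limma FDR 1.68e-05). *Synm* was not called (0.14, limma FDR 0.666). *Lcn2* was called at 2.18 (limma FDR 0.0168), but not without WY1 (1.99, limma FDR 0.0502). For *Gfap* the interaction (1.80) was larger than the change from MY to MO alone, since its mean was 0.54 lower in WO than in WY, and the same was true of *Cd44* (1.86). The mutant and wild-type mice of the old age were not of the same ages.

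In wild-type mice, the change from the young to the old age was small. Of the 10 genes 1 was called down from WY to WO, against 37 of all genes (0.204%), and none was called up. This gene was *Cd44* (log2FC -0.67, SE 0.10, limma FDR 0.0239), with each WO mouse below each WY mouse. The call was lost among the mice of batch 1 alone (-0.67, limma FDR 0.0587) and without WO1, WO2, WO5, WY1, WY2 or WY3 (limma FDR 0.0516 to 0.106), whereas the value ranged from -0.73 to -0.62 over the mice left out. *Gfap* was also lower in each WO mouse than in each WY mouse (log2FC -0.54, SE 0.09, limma FDR 0.0345) and was below the fold change threshold, which it passed without WO4 (-0.59, limma FDR 0.0280). Of all genes 1756 (9.67%) had WY and WO groups without overlap in either direction. The other 8 genes had log2FCs between -0.39 (*Timp1*) and -0.01 (*Lcn2*), with overlapping groups and an FDR of at least 0.441. The direction of 4 of these was not stable. Among the mice of batch 1 the value was positive for *Serpina3n* (0.21), *Osmr* (0.20) and *Lcn2* (0.065), and that of *Synm* ran from -0.049 to 0.028 with 1 mouse left out. The value of *Timp1* depended on the fit and ran from -0.79 with a pseudocount of 0.25 to -0.08 among the mice of batch 1, and from -0.54 to -0.22 with 1 mouse left out. The median of the 10 genes was -0.18 and that of all genes 0.0018.

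At 50 days, the comparison of mutant and wild-type mice before symptoms gave no call. None of the 10 genes was differentially expressed between WY and MY by limma, and 1 of all genes was (0.0055%). Before adjustment, 2 of the 10 genes had a p below 0.05, as did 1301 of all genes (7.16%). These were *Cd44* (log2FC -0.21, SE 0.04, limma FDR 0.468) and *Gfap* (log2FC -0.20, SE 0.07, limma FDR 0.666), each lower in all 3 MY mice than in all 3 WY mice. *Serpina3n* went the other way, with a log2FC of 0.15 (SE 0.07, limma FDR 0.695) and no overlap of the groups. Groups without overlap were thus found for 3 of the 10 genes, and for 2483 of all genes (13.7%). The median was -0.08, and the values of the 10 genes ran from -0.21 to 0.15.

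The order of the 10 genes by mean level was the same in WY, MY and WO: *Gfap*, *Vim*, *Serpina3n*, *Synm*, *Cd44*, *Nes*, *Lcn2*, *Aspg*, *Osmr* and *Timp1*. From *Gfap* to *Cd44* each gene lay above the next in all 3 WY mice and in all 3 MY mice without overlap, while neighbours from *Nes* down overlapped in WY. In WO the ranges of *Vim* and *Serpina3n* overlapped (that order in 4 of 5 mice), as did those of all neighbours from *Cd44* down. In MO the order was *Gfap*, *Serpina3n*, *Vim*, *Synm*, *Timp1*, *Lcn2*, *Cd44*, *Aspg*, *Osmr* and *Nes*. *Serpina3n* was above *Vim* in 5 of 5 MO mice, although the ranges of both genes overlapped, and *Synm* and *Timp1* (difference of means 0.03) and *Lcn2* and *Cd44* (0.04) did not differ beyond their spread. The ranges of *Timp1* and *Lcn2*, of *Aspg* and *Osmr* and of *Osmr* and *Nes* overlapped too, each pair in that order in 4 of 5 MO mice. Of the summed FPKM of the 10 genes, *Gfap* made up 89.1 ± 0.54% in WY and 88.0 ± 0.37% in MY (SD, n = 3 each), and 86.3 ± 2.02% in WO and 74.4 ± 3.65% in MO (SD, n = 5 each). The share of *Serpina3n* was 3.41 ± 0.53% (n = 3) in WY and 13.3 ± 2.84% (n = 5) in MO, and that of *Vim* was 4.48 ± 0.15% (n = 3) and 9.30 ± 0.54% (n = 5).

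The MO mice differed among themselves. MO4, 224 days old and of batch 2, was lowest of the 5 in 9 of the 10 genes. This was not particular to the 10 genes. Among the lists described below, the 5 further shared genes (174 FPKM in sum) and the A1 panel (181 FPKM) were also lowest in MO4. The A2 panel was lowest in MO1 (195 FPKM) and the microglia markers in MO5 (324 FPKM). MO3, the oldest of the MO mice at 245 days, was highest in *Vim*, *Cd44*, *Timp1* and *Aspg*, MO2 in *Gfap* and *Osmr*, and MO1 in *Synm*, *Serpina3n* and *Lcn2*. The mean of the 2 MO mice of batch 2 was below that of the 3 of batch 1 in 9 of the 10 genes, *Nes* being the exception. The share of all genes with either pattern was not computed. Within batch 1 the difference from WO to MO was 1.69 for *Gfap*, 2.57 for *Vim*, 3.33 for *Serpina3n*, 3.54 for *Timp1* and 2.70 for *Lcn2*. Within batch 2 it was 1.47 for *Gfap*, 2.63 for *Vim*, 3.29 for *Serpina3n*, 3.87 for *Timp1* and 1.73 for *Lcn2*. For *Nes*, *Osmr*, *Cd44* and *Aspg* it was 0.79, 1.55, 1.72 and 1.78 in batch 1 and 1.17, 1.74, 1.53 and 1.63 in batch 2. *Synm* alone had opposite signs, at 0.20 in batch 1 and -0.12 in batch 2. No young mouse was in batch 2, so MY vs. MO could not be divided in this way.

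The genes with the most similar profiles over the 16 mice were found by the mean absolute difference of z-scores among 13529 genes. For *Gfap* they were *Cd44* (0.120), the zinc transporter gene *Slc39a1* (0.131) and *Dhrs1* (0.141), and for *Cd44* the nearest gene was *Gfap*. *Timp1* was nearest to *Vim* (0.0806), and *Vim* to *Cd14* (0.0718), which codes for a coreceptor of bacterial lipopolysaccharide. The nearest gene of *Serpina3n* was *Csf1r* (0.0710), which codes for the receptor of colony stimulating factor and marks microglia. *Aspg* was nearest to the proton channel gene *Hvcn1* (0.0838), *Osmr* to the transporter gene *Slco2b1* (0.103) and *Nes* to *Fcrls* (0.183). *Lcn2* was nearest to *Apod* (0.112), the gene of apolipoprotein D, which was at 10.39, 9.88, 9.19 and 10.06 in MO2 to MO5 and, like *Lcn2*, highest in MO1 and lowest in MO4. *Synm* was nearest to *Fam214a* (0.222), which was at 4.88 in MO1 and between 3.74 and 4.05 in the 15 other mice. The median distance of *Gfap* to all genes compared was 1.13. Except for *Fam214a*, each nearest gene named had all 5 MO mice above the 11 others, a pattern of 1377 of all genes (7.58%). Genes with this pattern lie near each other by this measure, and shared regulation was not tested.

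Other genes of the reactive state were taken from panels described in mice. Of 5 further genes described as shared between forms of reactive astrocytes, 4 were called up from MY to MO and 3 from WO to MO. *Hspb1*, a small heat shock protein gene, had the largest log2FC, 2.34 (SE 0.21, limma FDR 0.000314) from MY to MO and 2.47 (SE 0.26, limma FDR 7.65e-05) from WO to MO. *Cxcl10*, a chemokine gene, was called in both (1.29, limma FDR 0.0032, and 1.63, limma FDR 6.49e-05), as was the lipid receptor gene *S1pr3*. *Cp*, the gene of ceruloplasmin, was called from MY to MO (0.73, limma FDR 0.00405) and not from WO to MO (0.57, limma FDR 0.0079, below the fold change threshold). *Steap4* stayed at low levels, with a log2FC of 0.27 from MY to MO.

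The A1 panel, described after lipopolysaccharide, and the A2 panel, described after ischemia, both had called genes. Of the A1 panel 11 of 12 genes were in the table (*Ugt1a1* was not analysed here), and 7 were called up and none down in MY vs. MO and in WO vs. MO, with a median log2FC of 1.08 and 1.02. They included the complement inhibitor gene *Serping1*, with the largest value (1.92, limma FDR 4.85e-05 from WO to MO), and the immunoproteasome gene *Psmb8* (1.53, limma FDR 2.48e-05). Of the 12 genes of the A2 panel 9 were called up from MY to MO and 8 from WO to MO, none down, with a median of 1.02 and 1.21. Here *Cd109* (2.35, limma FDR 8.12e-05 from WO to MO) and *Cd14* (1.84, limma FDR 2.16e-05) had the largest values, whereas *Ptgs2* and *B3gnt5* were low in every group and not called.

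Of 17 genes of gp130 and STAT3 signalling, 5 were called up from MY to MO, 4 from WO to MO and none down. Among the ligands, *Cntf* (log2FC 1.12, SE 0.12, limma FDR 8.6e-05 from WO to MO) and *Clcf1* (1.23, SE 0.07, limma FDR 1.46e-05), which also stands in the A2 panel, were called up in both comparisons, and *Ctf1* from MY to MO. *Il6* was at most at 0.27 in any mouse. *Osm*, the ligand of *Osmr*, was at 0.27, 0.69, 0.74, 0.33 and 0.61 in MO1 to MO5 and at most at 0.16 in the other mice, with a log2FC of 0.49 (SE 0.09, limma FDR 0.00263) from WO to MO, below the fold change threshold. Among the receptors *Il6ra* was called up (0.68, limma FDR 0.00184 from WO to MO), and *Il6st*, the gene of gp130, had a log2FC of 0.07 (limma FDR 0.396). *Stat3* was at 4.97 to 5.14 in MO and at 4.53 to 4.76 in the other mice, with a log2FC of 0.48 (SE 0.04, limma FDR 3.93e-05) from WO to MO, below the fold change threshold. *Socs3*, a feedback inhibitor induced by STAT3, was called up at 1.67 (SE 0.13, limma FDR 2.21e-05). Falls below the fold change threshold were seen as well. From WO to MO *Cntfr*, the most abundant of the 17 genes, had a log2FC of -0.43 (SE 0.07, limma FDR 0.00163). That of *Jak1* was -0.20 (SE 0.04, limma FDR 0.00623), and 13 of the 17 genes had a positive value.

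Genes of proteins that bind or cut the products of the 10 genes changed in part. Of 14 such genes 3 were called up and 1 down in MY vs. MO and in WO vs. MO, with a median log2FC of 0.02 and 0.13. *Cd63*, the gene of a membrane receptor of TIMP1, was called up at 1.45 (limma FDR 2.67e-05 from WO to MO). *Spp1*, the gene of osteopontin, a ligand of CD44, was called up at 1.44 (limma FDR 0.000376), and *Mmp14*, the gene of a membrane-bound metalloproteinase, at 0.63 (limma FDR 0.0115). *Mmp9*, a gene of a secreted metalloproteinase, was called down at -0.70 (limma FDR 5.05e-05). The genes of the LCN2 receptors, *Slc22a17* (log2FC -0.17, limma FDR 0.0492) and *Lrp2* (-0.01, limma FDR 0.845), were not called.

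The label of the tissue and the cells it holds were examined with marker lists. The 12 astrocyte markers, among them genes of metabolism and transport, had a summed level of 3176 ± 206 FPKM in MO and 2887 ± 73.4 FPKM in WO (SD, n = 5 each). It was 2957 ± 33.9 FPKM in MY and 2916 ± 76.4 FPKM in WY (SD, n = 3 each), with *Aldoc* the most abundant. From MY to MO 1 of 12 was called up, *Aldh1l1* (0.62, limma FDR 0.00352), and from WO to MO 3 of 12, *Aldh1l1* (0.69, limma FDR 0.00023), *Aqp4* (0.83, limma FDR 0.000244) and *Sox9* (0.69, limma FDR 5.15e-05). The medians of the 12 were 0.22 and 0.25, below those of the 10 reactive genes. The water channel gene *Aqp4* was, like *Cd44*, called down from WY to WO (-0.65, limma FDR 0.0281). In contrast the summed FPKM of the 10 reactive genes was 2986 ± 470 (n = 5) in MO and 840 ± 75.2 (n = 5) in WO.

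Of the 8 microglia markers 7 were called up from MY to MO (median 1.08) and 6 from WO to MO (median 1.21). Their summed level in MO1 to MO5 was 328, 419, 456, 332 and 324 FPKM and at most 169 FPKM in any other mouse. *Aif1* had the largest log2FC (1.75, limma FDR 0.000305 from WO to MO), and *P2ry12* was not called (0.10, limma FDR 0.623). No marker of endothelial cells (7 genes), pericytes (5), fibroblasts (5), oligodendrocyte precursors (4), neurons (5), Schwann cells (4) or T cells (4 of 5 in the table) was called in MY vs. MO or WO vs. MO. In the order MO, MY, WO and WY, their mean sums were 39.9, 40.5, 56.7 and 51.5 FPKM for endothelial cells, 44.3, 52.2, 56.5 and 56.7 FPKM for pericytes, and 17.0, 16.6, 16.6 and 15.3 FPKM for fibroblasts. In the same order they were 64.0, 83.1, 70.7 and 83.2 FPKM for oligodendrocyte precursors and 1912, 2241, 2407 and 2131 FPKM for neurons. The Schwann cell markers summed to 1.94, 2.08, 1.88 and 2.06 FPKM, and the 4 T cell markers were near 0 in all groups (0.394, 0.129, 0.107 and 0.136 FPKM in sum). All 7 endothelial markers were lower in MO than in WO, with log2FCs from -0.57 to -0.33 (median -0.47), below the fold change threshold. From MY to MO the median of these 7 was -0.07. Of 5 ependymal markers *Rarres2* was called up from WO to MO (0.63, limma FDR 0.00439), and their sum was 44.0 FPKM in MO, 37.6 in MY, 37.8 in WO and 37.8 in WY. Of 5 motor neuron markers *Chat* was called down from WO to MO (-0.67, limma FDR 3.13e-05), with a sum of 50.2 FPKM in MO, 65.1 in MY, 73.8 in WO and 57.7 in WY. Except for the measurements given, the part of these cell types in the levels of the 10 genes was not tested.

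Promoter sequences of RefSeq (GRCm38.p6, from 250 bases before to 50 bases after the RefSeq gene start) were available for 10 of the 10 genes and were searched on both strands for TTCNNNGAA, the STAT motif, and TGANTCA, the AP-1 motif. The STAT motif was found in 1 of the 10 promoters and in 8.30% of 32851 promoters, and the AP-1 motif in 1 of the 10 and in 7.81%. The matches were in *Gfap* and in *Osmr*, printed below because they are the promoters of the 10 with a match, 5′ to 3′ with the matched letters in capitals. The match in *Gfap* (chr11:102897151-102897450, minus strand) began at position -2 and that in *Osmr* (chr15:6874264-6874563, minus strand) at position 4 from the RefSeq start, which in both genes lies inside the GENCODE gene positions given above, and a match is a description of the letters only. Of the 10 promoters those of *Synm* (72.7% G and C) and *Osmr* (66.0%) were the richest in G and C, where the median of all promoters was 52.7%.
Gfap: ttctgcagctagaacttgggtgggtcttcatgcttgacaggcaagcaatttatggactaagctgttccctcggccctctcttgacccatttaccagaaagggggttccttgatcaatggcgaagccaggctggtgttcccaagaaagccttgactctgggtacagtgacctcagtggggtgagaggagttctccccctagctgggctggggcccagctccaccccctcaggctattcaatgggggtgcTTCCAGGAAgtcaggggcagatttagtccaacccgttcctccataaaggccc
Osmr: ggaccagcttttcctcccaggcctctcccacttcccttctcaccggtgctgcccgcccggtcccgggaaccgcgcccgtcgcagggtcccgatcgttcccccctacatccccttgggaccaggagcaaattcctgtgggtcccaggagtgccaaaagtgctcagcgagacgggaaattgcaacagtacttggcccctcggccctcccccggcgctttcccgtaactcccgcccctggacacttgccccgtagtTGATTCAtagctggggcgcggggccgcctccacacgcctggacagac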

How the data were processed

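RNA of 16 spinal cords was sequenced from stranded mRNA libraries. Per the labels and the paper's methods, the authors used Trimmomatic to clean reads, TopHat to align them to mm10 and Cufflinks to compute FPKM per gene. They removed genes with an FPKM of 0 in 8 or more mice, took log2(1 + FPKM) and adjusted for batch with parametric ComBat. Versions and the covariates of ComBat are not given in the sources used here. The log2 values of the authors were used as deposited, with no column left out. The table holds no read counts, so the number of reads behind the value of a gene is unknown.

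Each comparison was fitted to all 18167 genes of its 2 groups, and the interaction to all 16 mice, with limma 3.58.1 in R 4.3.3 (lmFit and eBayes, two-sided, Benjamini-Hochberg FDR), after the procedure was tested on simulated data. Python 3.11.15, NumPy 2.4.6, pandas 2.3.3, SciPy 1.17.1 and matplotlib 3.10.9 did the rest. FPKM values in the text were computed back from log2(1 + FPKM), with values below 0 set to 0 in sums. Positions came from GENCODE M21. The genes named are the 10 genes, the gene with the nearest profile to each (3 for *Gfap*, among genes with a mean of at least 1), genes on the opposite strand that overlap any of the 10 (*Ttc23*, *Syn1*), *Xist* and *Ddx3y* as a check of sex, and genes of the lists described, of which some are not reported here. Members and lists were chosen with earlier results of these data known. Alternatives were batch 1 only, batch as a term, genes with a mean of at least 1, 1 fit of all groups, quantile normalization, a pseudocount of 0.25, an intensity trend, a block for the replicate number, and the removal of each mouse in turn.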

Additional observations from a re-analysis of the deposited data

Results flagged for a closer look

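Of 20 sets of values, the 10 genes in the 5 WO and in the 5 MO mice, 3 held a mouse far from the others of its group by Dixon's test, which chance alone gives in about 1 of 20 sets. *Synm* was high in MO1, at 4.93, where the other MO mice were between 4.15 and 4.31. *Synm* was low in WO3, at 4.19, where the other WO mice were between 4.33 and 4.36. *Lcn2* was high in WO1, at 2.28, where the other WO mice were between 1.33 and 1.51.

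The change with age differed between the mutant and the wild-type mice for 9 of the 10 genes by the interaction test of limma. The differences of log2 fold changes were 1.80 for *Gfap*, 2.73 for *Vim* and 1.03 for *Nes* among the filament genes, and 3.17 for *Serpina3n*, 3.57 for *Timp1* and 2.18 for *Lcn2* among the genes of secreted proteins. They were 1.72 for *Osmr* and 1.86 for *Cd44*, the receptor genes, and 1.78 for *Aspg*.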

How the results depend on the processing

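The number of the 10 genes called up was 9 in WO vs. MO in every alternative run, and 8 or 9 in MY vs. MO and in the interaction, where *Lcn2* was the gene lost without MY1, MY3 or WY1. In WY vs. MY it was 0 in every alternative run. In WY vs. WO 1 gene was called down, *Cd44*, against 0 among the mice of batch 1 only and 0 to 2 with 1 mouse left out, and the cause was not tested.

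With batch 1 only, with batch as a term and with the replicate block, the log2 fold change from WY to WO turned positive for *Serpina3n* (0.21), *Lcn2* (0.065) and *Osmr* (0.20), which were not called in any of these fits. With 1 mouse left out, it ran from -0.18 to 0.041 for *Serpina3n*, from -0.18 to 0.18 for *Lcn2*, from -0.16 to 0.080 for *Osmr* and from -0.049 to 0.028 for *Synm*. *Synm* ran from -0.013 to 0.18 in MY vs. MO and from -0.061 to 0.13 in WO vs. MO. From WY to MY, *Lcn2* ran from -0.029 to 0.31 and *Aspg* from -0.15 to 0.042.

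With the replicate block, 0 of the 10 genes were called in WY vs. WO (*Cd44* -0.67, limma FDR 0.110). Mice of the same number share only a number: their correlations were 0.18, 0.085 and 0.15 in MY vs. MO and between -0.21 and 0.38 in the other comparisons, and the block changed no other call of the 10 genes.

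Over all genes, those called down in MY vs. MO were 143, against 258 with batch 1 only, batch as a term or the replicate block and 237 with a pseudocount of 0.25. In WO vs. MO they were 94, against 184 with that pseudocount. In WY vs. WO they were 37, against 60 with batch 1 only or batch as a term and 5 to 57 with 1 mouse left out. Those called up in WY vs. WO were 9, against 20 with batch as a term, 17 with the replicate block, 14 with a pseudocount of 0.25 and 2 to 9 with 1 mouse left out. In WY vs. MY 1 gene was called up and 0 down, against 4 up with all groups in 1 fit, 2 up with a mean of at least 1 or the intensity trend, and 1 to 4 up and 0 to 2 down with 1 mouse left out. In the interaction 845 genes were called up and 175 down, against 715 and 277 after quantile normalization, 271 down with the pseudocount and 78 to 366 down with 1 mouse left out. Each young group is limited to 3 mice.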

Other observations

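Of 9 other intermediate filament genes, none was called up and 3 were called down in MY vs. MO and in WO vs. MO. They were the neurofilament genes *Nefl* (log2FC -0.75, SE 0.10, limma FDR 0.000352 from WO to MO), *Nefm* (-0.70, SE 0.08, limma FDR 0.000178) and *Nefh* (-0.74, SE 0.09, limma FDR 0.000149), the filament proteins of axons. The 9 genes summed to 1453 ± 173 FPKM (SD, n = 5) in MO and 2328 ± 199 FPKM (n = 5) in WO. In MO the RNA of *Gfap* (mean 2217 FPKM) was thus above that of the 9 genes together, and in WO (724 FPKM) it was below.

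The oligodendrocyte marker *Mog* was called down from MY to MO (log2FC -0.93, limma FDR 0.0118) and from WY to WO (-0.77, limma FDR 0.0178). *Mbp*, the gene of myelin basic protein, was at 5.36 in WO4 and between 12.16 and 14.22 in every other mouse. The other mice of batch 2 stood apart as well. The 5 oligodendrocyte markers, with *Mbp* the most abundant, summed to 23150 FPKM in WO5, 21332 in MO4 and 20751 in MO5. They summed to between 6561 and 9568 FPKM in the old mice of batch 1 and to at most 15388 FPKM in young mice. Whether the values of batch 2 are artefacts was not tested.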
